A study of Mus musculus with 12 samples.

Results

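Open chromatin in alveolar type II (AT2) cells was compared between the metastatic niche and distal lung of mice carrying 4T1 lung metastases. The comparison used the 6 libraries, of 12 in the series, that the labels assign to AT2 cells from 4T1-injected mice: 3 from the niche and 3 from distal lung. 4T1 is a mammary carcinoma line of BALB/c origin. Both groups came from BALB/c mice of 6 to 8 weeks that received 800000 labelled 4T1 cells by tail vein and were taken at day 7. Both groups therefore came from tumour-bearing mice, and no library of a tumour-free lung was used here. For each sample 5 lungs were pooled and 50000 AT2 cells were sorted by flow cytometry. The labels call the 3 samples of a group independent, and do not say whether a niche and a distal library came from the same lungs. The labels do not state the sort gates that separated niche from distal cells. The labels' molecule and library source fields name RNA, whereas the protocols describe Omni-ATAC-seq.

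AT2 cells are the cuboidal cells of the alveolus that make, store and secrete pulmonary surfactant, and they act as progenitors of the flat alveolar type I (AT1) cells that carry out gas exchange. After injury AT2 cells can pass through a transitional state marked by Krt8 and Cldn4 on the way to AT1 cells, and inflammatory and interferon signals act on them. In ATAC-seq the Tn5 transposase cuts and tags DNA that is not covered by nucleosomes, so that a peak marks a stretch where the chromatin of many cells was open. The values used are where each deposited peak starts and ends. A stretch open in fewer cells and a stretch less open in every cell cannot be told apart in such bulk samples.

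The labelled cell type was checked first. All 16 loci of a list of surfactant and lamellar body genes held peaks, with summed lengths under peaks, unscaled, of 78.9 to 91.3 kb in the distal and 91.6 to 99.3 kb in the niche libraries. A locus here is the gene body with 10 kb each side, so its length can include peaks at neighbouring genes. Peaks at a locus are common, as 16643 of 21627 protein-coding loci had one in at least 3 of the 6 libraries. All 17 listed AT1 loci and all 7 listed ciliated cell loci held peaks too. Holding peaks therefore does not by itself identify AT2 cells. Sftpc, which encodes surfactant protein C and defines AT2 cells, had 6894, 7428 and 5668 bp under peaks in the distal and 6880, 7173 and 5281 bp in the niche libraries. Of these, 2099, 2818 and 1171 bp (distal) and 1957, 2307 and 1070 bp (niche) lie in a region inside Bmp1, 5930 bp from Sftpc. Among loci of other cell types, no library held a peak at Ptprc (the pan-leukocyte antigen), Adgre1, Marco, Siglecf, Cd3d, Cd8a or S100a9 (macrophage, lymphocyte and neutrophil markers), at Dcn or Lum (fibroblast matrix proteins), at Krt5 (basal cells) or at the milk protein genes Csn2 and Csn3. Other members of the same marker lists did hold peaks in every library. Spi1, a myeloid transcription factor, had 3380 to 5451 bp over the 6 libraries, Cd68 3312 to 3525 bp, Csf1r, the macrophage growth factor receptor, 1365 to 1757 bp, the B cell gene Cd79a 2511 to 3718 bp, the T cell kinase Lck 2512 to 2727 bp and the fibroblast collagen Col1a1 2874 to 3463 bp. No library held a peak at 5 of 12 macrophage, 1 of 9 neutrophil, 6 of 12 lymphoid, 2 of 10 fibroblast, 1 of 11 endothelial, 2 of 6 basal cell, 1 of 7 club cell, 0 of 7 ciliated cell and 2 of 10 mammary and 4T1 loci, so that absence of other cells cannot be read from these lists.

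The starts of genes open only in the niche libraries are shown before the values. A start window was the 250 bases before and 50 bases after a RefSeq start on the GRCm38.p6 build, and 32619 windows of 26794 genes were available. A window was niche-only when peaks of all 3 niche libraries and of no distal library touched it. That was so for 142 windows, 0.435% of the windows, and they belonged to 136 genes, 77 of them protein coding. The reverse pattern was seen at 9 windows, 0.0276% of the windows. The next lines give the 250 bases before the start, 5′ to 3′ on the gene's own strand. They cover 5 of the 17 niche-only protein-coding genes whose whole locus also rose. The 5 genes are A4galt (a glycosyltransferase that makes globo-series glycolipids), Ecm1 (a secreted matrix protein), Hrh1 (the histamine H1 receptor), Twist1 (a mesenchymal transcription factor) and Timp1 (an inhibitor of matrix metalloproteinases). Capitals mark the letters TGANTCA, the site of AP-1 (Fos and Jun dimers), in A4galt, Ecm1 and Hrh1, GAAANNGAA, the core of the interferon response element, in A4galt, and GGAATG, the site of TEAD factors, in Timp1. The 250 bases of Twist1 hold none of the motifs searched, in these letters, and are shown for comparison. Those of Chst2 and Ggta1, which also had niche-only starts and loci that rose, hold none either and are not shown. The 5 were not chosen by a stated rule, so their motifs do not stand for the 17.
A4galt chr15:83251730-83251979 (- strand): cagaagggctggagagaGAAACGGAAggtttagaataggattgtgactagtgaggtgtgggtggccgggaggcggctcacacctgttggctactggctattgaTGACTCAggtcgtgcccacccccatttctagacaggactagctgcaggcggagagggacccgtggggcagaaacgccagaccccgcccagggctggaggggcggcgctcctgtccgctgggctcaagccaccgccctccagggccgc
Ecm1 chr3:95739570-95739819 (- strand): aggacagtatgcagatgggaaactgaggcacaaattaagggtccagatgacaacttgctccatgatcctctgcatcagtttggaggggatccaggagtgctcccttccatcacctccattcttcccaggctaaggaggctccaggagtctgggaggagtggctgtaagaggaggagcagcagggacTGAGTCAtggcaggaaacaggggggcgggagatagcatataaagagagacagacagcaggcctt
Hrh1 chr6:114458272-114458521 (+ strand): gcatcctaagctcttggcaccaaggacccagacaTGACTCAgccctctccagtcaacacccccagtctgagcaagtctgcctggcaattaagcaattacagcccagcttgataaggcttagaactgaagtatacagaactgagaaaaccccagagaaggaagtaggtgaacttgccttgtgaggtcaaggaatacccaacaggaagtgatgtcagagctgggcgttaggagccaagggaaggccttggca
Twist1 chr12:33957421-33957670 (+ strand): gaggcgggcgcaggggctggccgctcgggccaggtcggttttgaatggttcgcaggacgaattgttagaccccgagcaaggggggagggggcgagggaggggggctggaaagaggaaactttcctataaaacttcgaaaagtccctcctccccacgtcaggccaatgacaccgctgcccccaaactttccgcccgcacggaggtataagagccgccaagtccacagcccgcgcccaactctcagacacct
Timp1 chrX:20869916-20870165 (+ strand): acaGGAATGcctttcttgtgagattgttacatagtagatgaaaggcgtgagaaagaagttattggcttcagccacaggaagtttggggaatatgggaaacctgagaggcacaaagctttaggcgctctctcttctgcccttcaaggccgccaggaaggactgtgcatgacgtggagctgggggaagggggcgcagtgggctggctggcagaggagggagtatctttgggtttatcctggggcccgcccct

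AP-1 letters stood before the start in 26 of the 142 niche-only windows (18.3%), which belonged to 25 genes. Over all 32619 windows the share was 6.78%, over the 13747 windows held by all 6 libraries 4.49%, and over 1805 windows held by 1 to 5 libraries in other patterns 6.70%. Among the 16916 windows held by no library it was 8.55%. The protein-coding genes with the letters in a niche-only window included A4galt, Ecm1, Hrh1, Eml1 and Ifi203, whose loci rose, and Ror2, Fgl2, C1qtnf6 and Ksr1. The other motifs had shares in niche-only windows nearer to those of all windows. NF-kB letters (GGNNTTTCC) stood in 5.63% against 4.96%, interferon response element letters (GAAANNGAA) in 7.75% against 7.17%, STAT letters (TTCNNNGAA) in 5.63% against 7.05% and TEAD letters (GGAATG) in 12.7% against 12.6%. In windows held by no library the shares were, in the same order, 4.85%, 8.40%, 8.32% and 14.2%. All motifs were searched on both strands, and matches of different motifs may overlap. Median GC content before the start was 54.2% in niche-only windows, 61.2% in those held by all 6 libraries and 52.4% in all windows. The share of niche-only windows with AP-1 letters was lower in stronger peaks, 9.86% of 71 windows with a −log10 q of at least 5, and it was 11.6% where peaks had to cover 50% of the window. A match is only a match of letters, and the shares were not tested.

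**Figure D1:**
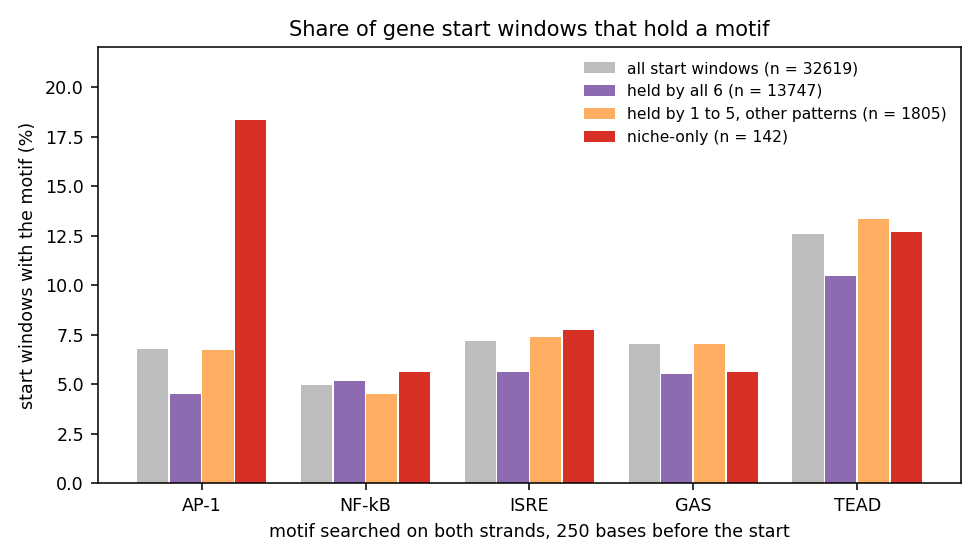
Bars give the percent of gene start windows with each motif in the 250 bases before the start, for all windows, windows held by all 6 libraries, windows held by 1 to 5 libraries in other patterns, and niche-only windows. AP-1 letters stood in 18.3% of niche-only windows and 6.78% of all windows.

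In each library, 59.5% to 60.2% (distal) and 60.9% to 61.5% (niche) of 17273 protein-coding genes had a start held by a peak. Niche-only starts of genes from the lists used here were those of Axl (a receptor tyrosine kinase), Cxcl12 (a chemokine of stromal cells), Ecm1, Tcf21 (a transcription factor of lung mesenchyme), Timp1 and Twist1. The Twist1 window had 263, 300 and 237 of its 300 bases under peaks in the niche libraries, and the Hrh1 window all 300 in each. The Cxcl12 window was touched by 32, 150 and 27 bases, so that the call rests on the edge of a peak. Chosen after their values were seen, further niche-only starts were those of Ifi203, Serpina3n, Ednra, Mfap2, Pcolce and Rspo1. Distal-only starts were those of Ctxn2, Golga5, Isl2, Klhl23, Pth1r, Rtn4rl2, Smarca1 and Wnt6 and of 1 unnamed model. The loci of 17 of the 77 protein-coding genes with a niche-only start passed as higher in the locus test below, against 0.607% of all loci tested. A locus contains its start window, so a niche-only start adds to the rise of the locus and the 2 are not separate results.

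The niche lists were longer than the distal lists. After restriction to autosomes and X, the distal libraries held 58237, 57646 and 56330 peaks and the niche libraries 66911, 63722 and 65485, so that the groups did not overlap and the niche mean was 13.9% higher. Peaks covered 45.0, 45.7 and 42.0 Mb in the distal and 51.9, 51.8 and 49.1 Mb in the niche libraries. The means were 44.2 ± 1.98 Mb (SD, n = 3) and 50.9 ± 1.60 Mb (SD, n = 3), a difference of 15.2%. An exact permutation test, two-sided, gave p = 0.1 for both measures, which is the smallest that 3 libraries against 3 can give. Median peak length did not separate the groups (673 bp distal and 666 bp niche on average, exact permutation p = 0.8). The median of the authors' fold enrichment per peak was lower in the niche libraries, 4.43 against 4.71 on average. The groups did not overlap in it (exact permutation p = 0.1). With a −log10 q of at least 5, peaks were 9.71% more numerous in the niche libraries (exact permutation p = 0.1) and covered 12.1% more (exact permutation p = 0.2, with overlapping groups). The number of reads behind each list was not known, and its part in these differences was not tested. For that reason lengths at regions and loci were scaled to the total length covered in each library.

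Merging the 6 lists gave 79998 regions. All 6 libraries held 46115 of them (57.6%). Niche-only regions numbered 2180, which is 2.73% of all regions, and distal-only regions numbered 120, or 0.150%. When each library was cut to the same number of peaks, by the authors' −log10 p, these counts were 953 and 625. Niche-only regions had a median length of 526.5 bp, distal-only regions 441.5 bp and regions held by all 6 libraries 1018 bp. A share of 7.02% of niche-only regions lay within 1 kb of a gene end, 51.1% elsewhere in a gene body, 12.2% within 10 kb of a gene and 29.6% further away. The 3303 other regions held by exactly 3 libraries were placed alike, with 7.05% near a gene end and 55.0% in a gene body. Of regions held by all 6 libraries, 27.2% lay near a gene end. By the authors' −log10 p, niche-only regions ranked low within their own lists, with a median percentile of 19.5 and a highest of 74.0. Distal-only regions had a median percentile of 16.1 and a highest of 55.2.

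**Figure D2:**
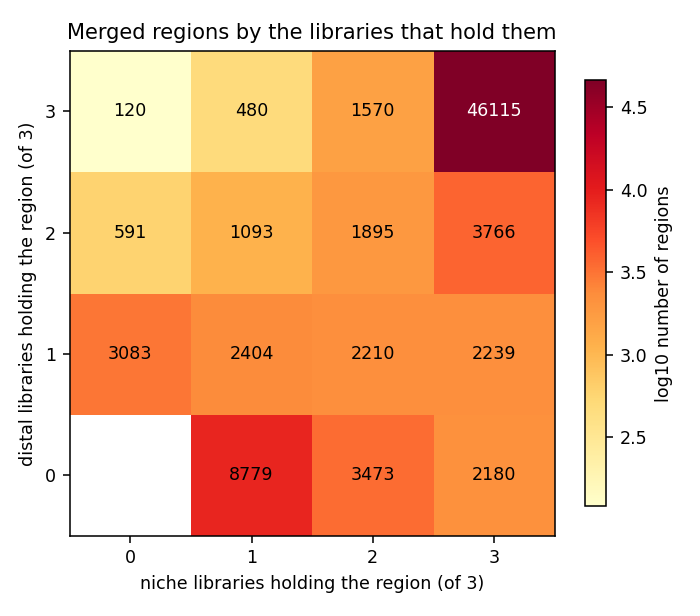
Each square gives the number of merged regions held by the stated number of niche (horizontal axis) and distal (vertical axis) libraries, coloured by log10 of the number. The corner of regions held by 3 niche and 0 distal libraries holds 2180 and the opposite corner 120, against 46115 held by all 6.

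Niche-only regions made up the smaller part of the length added in the niche libraries. Of the mean difference of 6.73 Mb, niche-only regions made up 0.998 Mb (14.8%). Regions held by all 6 libraries were longer under peaks in the niche libraries, 43.2 ± 1.37 Mb against 40.4 ± 1.41 Mb (SD, n = 3), and made up 2.77 Mb (41.2%). A further 3.47 Mb (51.6%) lay in 18257 regions held by more niche than distal libraries, leaving out niche-only regions and those held by exactly 3 libraries. Regions held by more distal than niche libraries, counted in the same way, numbered 5724 and took 0.749 Mb off the difference, as they covered 1.26 Mb in the distal and 0.507 Mb in the niche libraries.

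**Figure D3:**
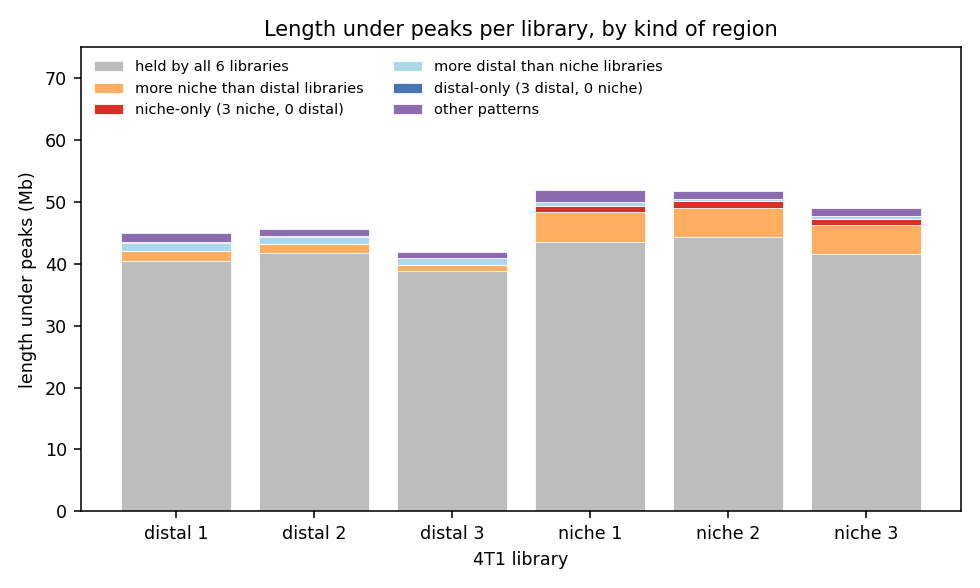
Stacked bars give the length under peaks in Mb in each of the 6 libraries, split by which libraries hold the region. Niche libraries reach 49.1 to 51.9 Mb and distal libraries 42.0 to 45.7 Mb, and the niche-only layer is 0.961 to 1.05 Mb of each niche bar.

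By the rule fixed for naming, the niche-only regions that ranked highest lay in H2-DMb2 (the beta chain of the MHC class II peptide loader H2-DM), Kdm4a (a histone demethylase), M1ap, Samd4 and St7, 22824 bp from Coro2b, at the end of Ifi204 (an interferon-inducible DNA sensor of the p200 family) and 1180 bp from Lgals1 (galectin-1). The region at Ifi204, chr1:173766719-173767588 (GRCm38), had 778, 825 and 754 bp under peaks in the niche libraries and none in the distal ones. The region in H2-DMb2, at chr17:34150083-34150316, was short, with 219, 223 and 192 bp. The highest-ranked distal-only regions lay 54916 bp from Strit1, 28390 bp from Spp2, 5588 bp from Ddx47, in Add3, 8228 bp from Celsr1, in Tdrd3, 74441 bp from Tnc and 27523 bp from Gata2. The region nearest Strit1 had 369, 488 and 362 bp in the distal libraries. Niche-only regions mostly stood alone: linking those less than 20 kb apart left 1946 single regions, 98 pairs, 10 groups of 3 and 2 groups of 4. One group of 4 spanned 43.4 kb, beginning within 10 kb of Snai1 (a transcription factor that represses E-cadherin) and running away from it, at chr2:167552420-167595806, with 2222, 2778 and 3135 bp under peaks in the niche libraries and none in the distal ones. Groups of 3 lay at Exoc3l4 and Tnfaip2, at Spaca6 and Has1 (a hyaluronan synthase), at Serping1 and Ube2l6, and at Scarb1, Gas7, Eml1, Cplx2, Zcchc24 and Mchr1, and 1 held no gene.

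Per locus, 16643 of 21627 protein-coding loci had a peak in at least 3 of the 6 libraries and were tested with limma on log2(scaled bp + 500). At a Benjamini-Hochberg adjusted p under 0.05, 101 loci were higher in the niche, 0.607% of those tested, and 6 were lower, 0.0361% (0.643% in either direction). The 2 groups of libraries did not overlap at any of the 107. As the background for the counts that follow, 38.3% of all loci tested were positive, 3042 of 16643 (18.3%) had an unadjusted p under 0.05, and without overlap the niche was higher at 8.17% and lower at 19.7%. The median change over all loci was −0.05, which was 0.12 without scaling. Since neighbouring loci share peaks, the 101 higher loci had 92 distinct regions of largest difference. That region was niche-only for 78 of the 101. It lay within the gene for 63 and within 1 kb of a gene end for 29. Of the 101, 39 had no peak in any distal library. Such a locus was tested only where all 3 niche libraries held a peak. Its direction and lack of overlap were thus fixed by the filter, here and for the loci without distal peaks named below. Restricting the lists to a −log10 q of at least 5 left 57 of the 101 loci testable, of which 8 passed, so most of these calls were not held by peaks of that strength alone. Of 30 loci that passed and were chosen for naming, 13 were testable with these stronger peaks and 0 passed by limma, with 11 in the same direction and 2 reversed. When each library was cut to an equal number of peaks, 25 of the 30 were testable and 10 passed. Leaving out niche replicate 1, 2 or 3 gave 23, 7 or 4 higher loci, and leaving out distal replicate 1, 2 or 3 gave 86, 60 or 42. With a niche replicate out, 62 of the 101 could be tested, as loci without distal peaks then fall short of 3 libraries.

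The apolipoprotein L genes, which lie in a cluster on chromosome 15 with the myoglobin gene Mb and encode lipid-binding proteins, held the highest median of any list. All 8 tested members were positive, 3 rose, 6 of 8 had groups that did not overlap, and the median change was 1.28, against −0.05 over all loci. Apol6 had 0, 329 and 207 bp under peaks in the distal and 2828, 3395 and 2748 bp in the niche libraries, a change of 2.28 ± 0.19 (log2, SE; adjusted p = 0.00635). Every niche library lay far above every distal library. Apol8 had 235, 288 and 218 bp against 2256, 3039 and 1519 bp (1.74 ± 0.18, adjusted p = 0.0119). Mb, a muscle oxygen store and no apolipoprotein, rose by 1.56 ± 0.13, but the region that differs most at Apol6 lies in Mb, 6851 bp from Apol6, so that these are not separate rises. Apol9b had 0, 0 and 300 bp against 1849, 1303 and 3063 bp and missed the threshold (1.98 ± 0.31, adjusted p = 0.0534). Apol9a and Apol9b are near-identical copies and the values of Apol7a and Apol9a come in part from the same peaks, so their lengths are uncertain. No library held a peak at Apol7c, Apol10a, Apol11a or Apol11b. With a −log10 q of at least 5, neither Apol6 (adjusted p = 0.0728) nor Mb (0.186) passed and Apol8 could not be tested, and with equal peak numbers Apol8 did not pass (0.591). Apol6 and Mb did not pass without niche replicate 2 (adjusted p = 0.0635 for each) or without niche replicate 3 (0.0646 for each). Apol8 did not pass without distal replicate 3 (0.0686), niche replicate 1 (0.0808) or niche replicate 2 (0.0635).

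Interferon-inducible GTPases, which attack the vacuoles of intracellular pathogens, were positive at 12 of 15 tested loci with a median change of 0.34. Tgtp2 had 716, 946 and 708 bp in the distal and 3139, 2368 and 2727 bp in the niche libraries (1.18 ± 0.11, adjusted p = 0.00775). Iigp1 had 3500, 3718 and 3178 bp against 6586, 5870 and 6091 bp (0.57 ± 0.07, adjusted p = 0.0203). These were the 2 of 15 that rose, and at 7 of 15 the groups did not overlap with the niche higher, against 0.607% and 8.17% of all loci. Irgm2 (0.86 ± 0.22, adjusted p = 0.161), Gbp10 (0.77 ± 0.27, adjusted p = 0.230) and Tgtp1 (0.65 ± 0.24, adjusted p = 0.241) had larger changes than Iigp1 and did not pass. Gbp5 and Irgm1, with changes of −0.04 each, had like lengths at both sites. Tgtp2 has a near-identical neighbour in Tgtp1, so the share of each is uncertain. With a −log10 q of at least 5 neither Tgtp2 (adjusted p = 0.470) nor Iigp1 (0.770) passed, and Iigp1 did not with equal peak numbers (0.592). Tgtp2 did not pass without distal replicate 3 (adjusted p = 0.0555) or niche replicate 3 (0.0852), and Iigp1 passed in 0 of the 6 fits that left out 1 library (adjusted p 0.0592 to 0.139). Of 20 tested genes of the wider interferon response, 12 were positive, the median change was 0.06 and limma called 0. An unadjusted p under 0.05 was reached at 3 of these 20, a smaller share than the 18.3% of all loci. MHC class I and II genes had a median of 0.02 over 16 loci, with 0 called by limma and 2 at an unadjusted p under 0.05.

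Among chemokines and inflammatory genes, Ccl2, which recruits monocytes through CCR2, had no peak in any distal library and 1710, 1333 and 1089 bp in the niche libraries (adjusted p = 0.005). Its neighbour Ccl7, another monocyte attractant, had 877, 754 and 651 bp in the niche libraries, and all of this lies in 1 region that Ccl2 shares, at chr11:82038521-82039397 (adjusted p = 0.0114). Both passed in all 3 fits that left out a distal library, the only ones that could test them. As no distal library had a peak there, these fits removed only a length of 0. Whether the calls hold without a niche library could not be tested. Ccl9 had 0, 242 and 0 bp against 696, 571 and 839 bp and did not pass (adjusted p = 0.0985). The neutrophil attractants Cxcl1 and Cxcl2 changed by 0.18 and 0.17 without passing, and 17 chemokine loci had a median of 0.14, 9 of them positive and 2 called. Tnfaip2, a target of TNF signalling, was the 1 of 21 NF-kB and acute inflammation loci that rose, with 919, 756 and 622 bp against 2659, 3567 and 2338 bp (1.25 ± 0.14, adjusted p = 0.0142). It passed in 1 of 6 fits that left out a library (adjusted p 0.0342 to 0.0756), and neither with a −log10 q of at least 5 (0.443) nor with equal peak numbers (0.0765). The median of that list was −0.06. The 13 genes of AP-1 itself and related factors had a median of −0.08, 2 positive, 0 called by limma and 2 at an unadjusted p under 0.05. Fos, Jun and Atf3 changed by −0.16, −0.17 and −0.16, none past the threshold.

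Genes of the matrix and of mesenchymal cells gave the next calls. Adamts2, a protease that trims procollagen, had 837, 1011 and 596 bp in the distal and 3583, 4069 and 4071 bp in the niche libraries (1.61 ± 0.12, adjusted p = 0.005). Timp1 had no peak in the distal and 857, 1192 and 1011 bp in the niche libraries (adjusted p = 0.00635), and Ecm1 none against 2431, 1525 and 775 bp (adjusted p = 0.0372). These 3 of 20 tested matrix loci rose, and the median of the list was 0.01. Twist1 was the 1 of 20 TGF-beta and EMT loci that rose, with no distal peak and 1064, 1232 and 653 bp in the niche libraries (adjusted p = 0.0148). The median there was 0.10, with 15 positive. Tgfb2 had 2054, 1294 and 999 bp against 3422, 4092 and 4147 bp and did not pass (1.04 ± 0.19, adjusted p = 0.0738). At Snai1 itself the change was 0.08, where most of the nearby group of niche-only regions lies outside the 10 kb flank and was not counted. Ecm1 passed in 0 of the 3 fits that left out a distal library (adjusted p 0.0911 to 0.142). With a −log10 q of at least 5 neither Adamts2 (adjusted p = 0.587) nor Ecm1 (0.245) passed. Adamts2 did not pass without niche replicate 2 (0.0551) or 3 (0.0646), and Twist1 did not without distal replicate 2 (0.0545) or 3 (0.0674).

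Markers of other cell types are given beside these loci. At the 7 tested of 10 fibroblast and mesenchymal markers, 6 were positive with a median of 0.49, limma called 0, 2 had an unadjusted p under 0.05 and at 2 the groups did not overlap with the niche higher. The summed length of a list is scaled throughout as in the fit. For fibroblast markers it was 5.49 to 9.14 kb in the distal and 8.64 to 10.2 kb in the niche libraries, which overlap, while Dcn and Lum had no peak in any library. Of 8 tested mesothelial markers, a list added after the data were seen, 7 were positive with a median of 0.49, and the summed length was 5.60 to 6.98 kb against 9.88 to 11.4 kb, with no overlap. The 3 tested of 6 basal cell markers had the highest median of the marker lists, 0.82, with 2 positive, 2 without overlap and higher, 2 at an unadjusted p under 0.05 and 0 called by limma. Their summed length was 1.85 to 2.32 kb against 2.91 to 4.46 kb, with no overlap. The basal keratin Krt17 had no distal peak and 420, 245 and 579 bp in the niche libraries, and Krt5 had none in any library. Krt17 could be tested only because every niche library held a peak there. Its sign and lack of overlap, counted above, therefore followed from the filter. Msln (mesothelin) was the mesothelial marker that rose, with no distal peak and 1179, 1146 and 1072 bp in the niche libraries (adjusted p = 0.00336). Msln passed in 9 of the 12 alternative limma fits that could test it (adjusted p 0.00285 to 0.290). None of these left out a niche library. Wt1, a transcription factor of mesothelium, had 540, 259 and 0 bp against 1821, 1130 and 1138 bp and did not pass (adjusted p = 0.130). With a −log10 q of at least 5 the median was −0.02 for the fibroblast and −0.19 for the mesothelial list. At the 10 tested endothelial loci, 8 were positive with a median of 0.06, and Pecam1 had 2485, 2528 and 2657 bp against 6667, 4466 and 5284 bp (0.77 ± 0.13, adjusted p = 0.0691). The summed endothelial length was 20.2 to 21.2 kb against 22.8 to 26.1 kb, with no overlap. Macrophage markers had a median of 0.00 over 7 loci, with overlapping sums of 15.6 to 16.5 kb against 15.5 to 16.5 kb. The 8 tested mammary and 4T1 markers had a median of 0.08 and 3 loci at an unadjusted p under 0.05, with overlapping sums of 18.5 to 21.6 kb against 19.6 to 22.001 kb. A large part of these sums is Elf5, which is also among the AT2 transcription factors listed here. Unscaled, Elf5 had 9642, 10883 and 7921 bp in the distal and 9611, 9876 and 9632 bp in the niche libraries. The 5 tested neutrophil markers had a median of 0.08 and sums of 5.31 to 6.26 kb against 5.39 to 7.10 kb, which overlap. The 6 tested lymphoid markers had a median of −0.10, and their sums, 12.7 to 13.1 kb against 11.6 to 12.6 kb, were lower in the niche without overlap. Club cell markers (median −0.05 over 5 loci, 12.3 to 14.7 kb against 12.7 to 13.2 kb) and ciliated cell markers (−0.03 over 7 loci, 12.3 to 14.3 kb against 11.9 to 12.7 kb) overlapped. Limma called 0 loci of these endothelial, macrophage, mammary, neutrophil, lymphoid, club and ciliated lists, with 1, 1, 3, 0, 0, 0 and 0 at an unadjusted p under 0.05. Without scaling the niche sums lay above the distal ones also for fibroblast, macrophage and mammary markers. The part of other cells in the rises at matrix, chemokine and mesothelial loci was not tested.

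Outside the lists, the largest rises by the naming rule were at A4galt, Sulf1, Ggta1, Hrh1, Mchr1, Chst2, Apod, Mtarc1 and Lsp1. Sulf1, an extracellular sulfatase that edits heparan sulfate, had 299, 456 and 291 bp in the distal and 2504, 3156 and 3383 bp in the niche libraries (1.92 ± 0.13, adjusted p = 0.00424). Its region of largest difference lies 2978 bp from Sulf1, at the end of its neighbour Slco5a1. That region held all of the distal length and 1357, 1388 and 1406 bp of the niche length. Lsp1, an actin-binding protein of leukocytes and endothelium, had 490, 506 and 365 bp against 2777, 2782 and 2500 bp (1.61 ± 0.08, adjusted p = 0.00199). Both passed in all 6 fits that left out a library, and each in 15 of the 16 alternative limma fits that could test it. The highest adjusted p in these fits was 0.0513 for Sulf1 and 0.0782 for Lsp1. The 3 glycan enzymes in this set were A4galt, with no distal peak and 1622, 1828 and 1389 bp in the niche libraries (adjusted p = 0.00199), Ggta1, which makes the alpha-gal epitope, with 416, 488 and 0 bp against 2190, 2795 and 2617 bp (1.87 ± 0.26, adjusted p = 0.0377), and Chst2, a sulfotransferase, with none against 1653, 1534 and 901 bp (adjusted p = 0.00732). Hrh1 had 299, 245 and 0 bp against 2154, 2548 and 1662 bp (1.86 ± 0.21, adjusted p = 0.0148). Mchr1, Apod (a lipocalin) and Mtarc1 had no distal peak. Apod had 1479, 1352 and 1170 bp in the niche libraries. A4galt, Mchr1, Chst2 and Apod passed in all 3 fits that left out a distal library, and Mtarc1 in 0 of 3 (adjusted p 0.0588 to 0.0875). These loci had no distal peak, so such fits removed only a length of 0. Whether their calls hold without a niche library could not be tested. Hrh1 passed in 3 of all 6 fits that left out a library (adjusted p 0.0310 to 0.101) and Ggta1 in 1 of 6 (0.0285 to 0.174).

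**Figure D4:**
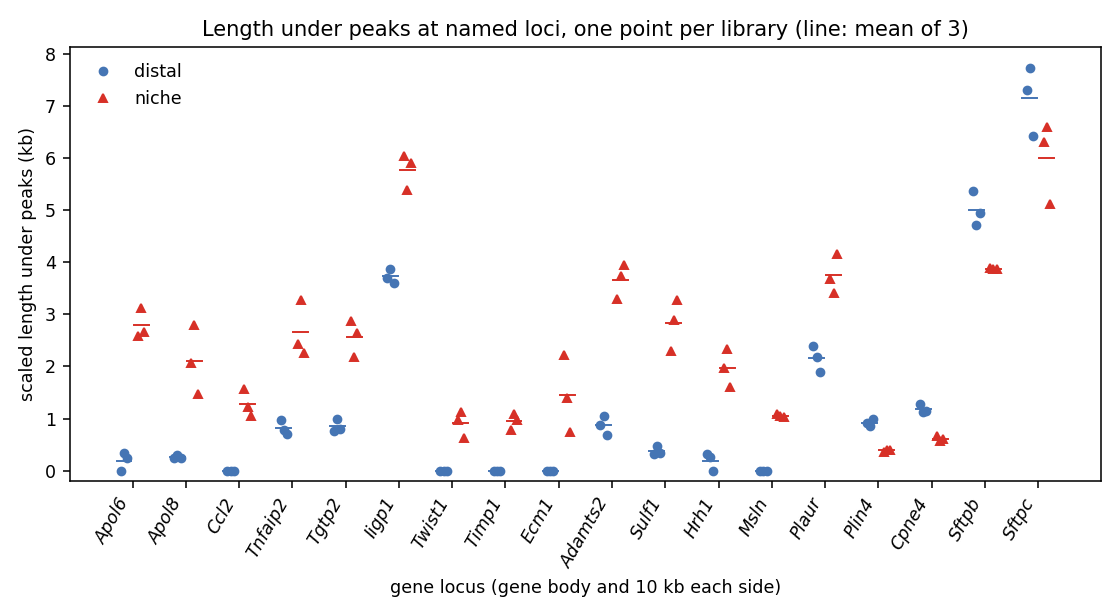
Points give the scaled length under peaks in kb at 18 loci in each library, circles for distal and triangles for niche, with a line at the mean of 3. The groups are apart at every locus except Sftpc, and Sftpb (which did not pass the test), Plin4 and Cpne4 lie lower in the niche. All loci shown but Sftpb and Sftpc are loci that passed, where the groups never overlapped, so their separation follows from the choice.

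Length was lost at 6 loci, namely Olfr171, Plin4, Cpne4, Nkx6-1, Bbs5 and Lurap1l, and none is a member of a list. Olfr171, an odorant receptor gene, had 1733, 1107 and 1215 bp in the distal and 268, 0 and 0 bp in the niche libraries, a change of −1.76 ± 0.20 (adjusted p = 0.0193). Plin4, a lipid droplet coat protein, had 858, 822 and 869 bp against 392, 440 and 415 bp (−0.67 ± 0.09, adjusted p = 0.0312), and its region of largest difference lies at the end of its neighbour Plin5, another droplet coat gene. Lurap1l had 7660, 7364 and 6986 bp against 6066, 6338 and 5423 bp (−0.47 ± 0.06, adjusted p = 0.0265). Plin4, Cpne4, Nkx6-1, Bbs5 and Lurap1l passed in 0 of 6 fits that left out a library, and Olfr171 in 2 of 6 (adjusted p 0.0341 to 0.123).

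The genes that define AT2 cells did not pass in either direction. Sftpb, encoding surfactant protein B, had 5076, 4525 and 4365 bp in the distal and 4241, 4216 and 3987 bp in the niche libraries, so that the groups did not overlap, at −0.33 ± 0.07 (adjusted p = 0.0892). Sftpc changed by −0.24 ± 0.11 (adjusted p = 0.295), Abca3, the lipid pump of lamellar bodies, by −0.15 ± 0.10 (0.444) and the lineage factor Nkx2-1 by −0.10 ± 0.10 (0.641). Lyz2 had the lowest value of the list, −0.45 ± 0.17, and Lpcat1, a surfactant lipid enzyme, the highest, 0.39 ± 0.12, and neither passed. Over 16 surfactant and lamellar body loci the median was −0.12, 6 were positive, limma called 0 and 3 had an unadjusted p under 0.05. Without scaling the median was 0.06. The 15 AT2 transcription factor loci had a median of −0.07 (0.12 without scaling) and 15 lipid synthesis loci −0.11, each with 0 called by limma and 2 at an unadjusted p under 0.05.

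Loci of the states an AT2 cell can move to were near the median of all loci. AT1 genes had a median of −0.04 over 17 loci, with 0 called by limma and 2 at an unadjusted p under 0.05. Hopx and Ager changed by −0.20 ± 0.19 and −0.12 ± 0.14. Pdpn, a surface protein of AT1 cells, had 2419, 2571 and 2579 bp against 3656, 4649 and 3666 bp with no overlap and did not pass (0.39 ± 0.10, adjusted p = 0.153). Of 18 transitional and p53 loci, Plaur, the urokinase receptor, rose, with 2269, 2099 and 1668 bp against 4021, 3715 and 4292 bp (0.68 ± 0.10, adjusted p = 0.0438). It passed in 0 of 6 fits that left out a library (adjusted p 0.0592 to 0.163), and neither with a −log10 q of at least 5 (0.499) nor with equal peak numbers (0.0639). Krt8 and Cldn4, which mark the transitional state, changed by −0.15 ± 0.08 and −0.17 ± 0.11. Mdm2, a target and inhibitor of p53, had the lowest value there, −0.57 ± 0.14 (adjusted p = 0.147). Of 20 stem and progenitor loci limma called 0, with 6 at an unadjusted p under 0.05 and a median of 0.00. Ly6a (Sca-1) changed by 0.15 ± 0.12 and Sox9, a factor of distal lung progenitors, by 0.82 ± 0.51 (adjusted p = 0.407), with 1063, 1693 and 0 bp in the distal and 1818, 1809 and 1733 bp in the niche libraries. Distal replicate 3 alone had no peak at Sox9, and without it the change was 0.18. The remaining lists, of Wnt, EGF and FGF, YAP and TEAD, hypoxia and glycolysis, cell cycle and widely expressed genes, had medians from −0.06 to 0.01 and 0 loci called by limma, with 5, 4, 3, 3, 3 and 4 loci at an unadjusted p under 0.05.

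**Figure D5:**
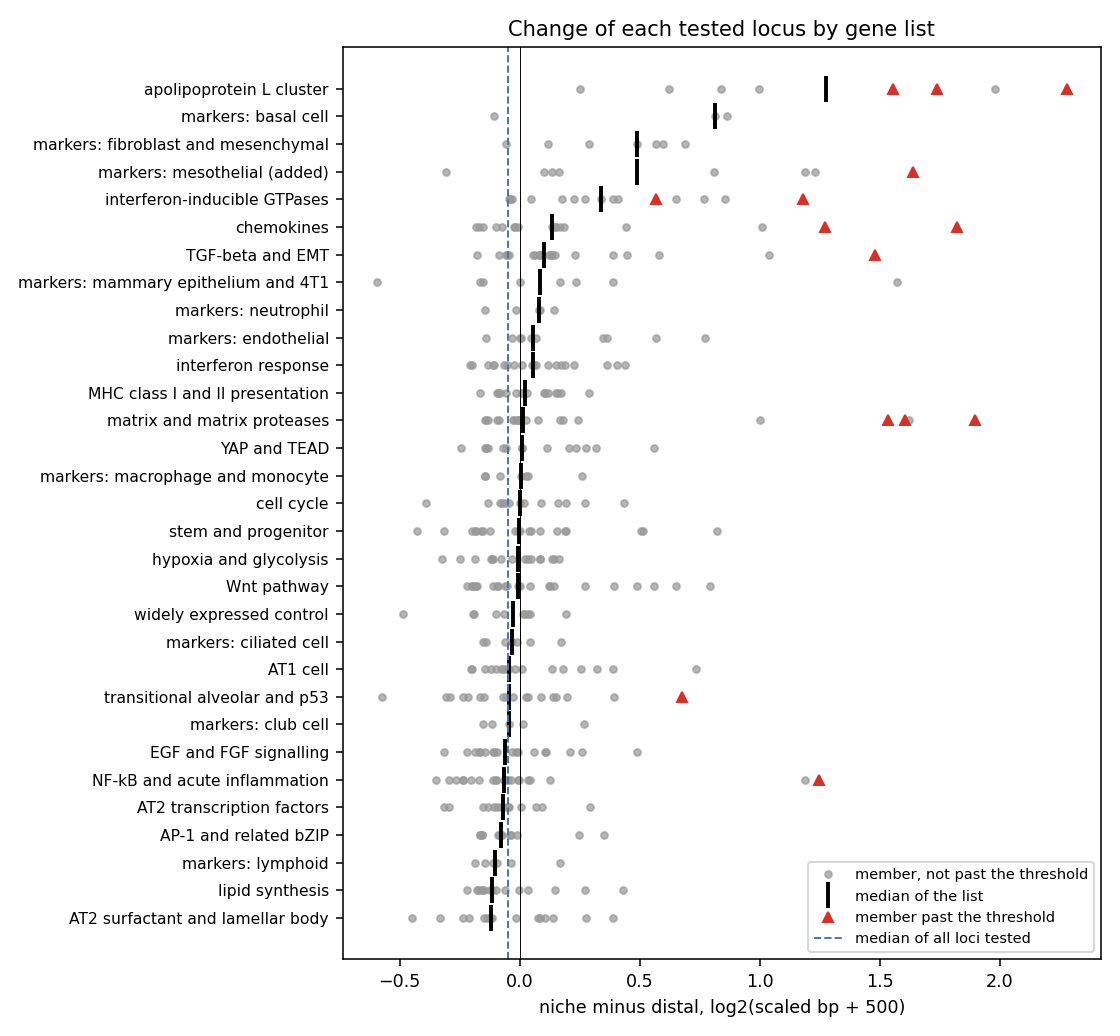
Each point is a tested locus, placed by niche minus distal on the log2(scaled bp + 500) scale, in rows by gene list ordered by median (black tick); triangles passed the threshold and the dashed line is the median of all loci, −0.05. The apolipoprotein L cluster stands highest at 1.28 and the surfactant list lowest at −0.12.

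Peak width was compared at the 46115 regions held by all 6 libraries, with limma on log2(scaled bp + 100). At an adjusted p under 0.05, 27 regions were wider in the niche (0.0585%) and 7 narrower (0.0152%). At an unadjusted p under 0.05, 1108 were wider and 8604 narrower, which without scaling was 3473 and 623, so that the more frequent direction depended on the scaling. A region 698 bp from Gabarapl1, an autophagy gene, had 290, 300 and 270 bp under peaks in the distal and 1513, 1433 and 1439 bp in the niche libraries (1.84 ± 0.08, adjusted p = 0.0145). Other wider regions by the naming rule lay 49302 bp from Lpp, in Eri3, in Tmem163, 37289 bp from Rras2 and in Rnf214, with changes of 1.71 to 1.81. The most narrowed region lay in Rad51b, a recombination repair gene, with 1378, 1477 and 1418 bp in the distal and 253, 326 and 349 bp in the niche libraries (−2.08 ± 0.13, adjusted p = 0.0223). Others lay in Dhh, Vps13c, Cd101, Ppp2r2b and Pdlim1. With distal replicate 1 or any niche replicate left out, limma called 0 regions wider, and 11 and 4 without distal replicate 2 and 3. For narrower regions the counts were 2 and 1 without distal replicate 2 and 3 and 0 without any other library.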

How the data were processed

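Omni-ATAC-seq was made from sorted mouse AT2 cells. Per library there is 1 list of broad peaks that the authors deposited, in GRCm38 coordinates. MACS2 and bedtools are named in the submitters' processing notes, without versions. The aligner was not given in the sources used here, nor were the calling settings. Peaks were called per library, as each library has its own list. The deposited columns used were peak start and end in bp, a fold enrichment per peak (a ratio) and −log10 of the p-value and of the q-value. They are the authors' own values, and fold and −log10 p served only to describe the lists and to rank peaks within a list.

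From these, peaks on the 19 autosomes and X were merged over the 6 libraries (overlap of at least 1 bp), and a region was held by a library with any overlapping peak. Loci were the 21627 genes that RefSeq lists as protein coding on GRCm38.p6, with 10 kb each side. Each library's lengths under peaks were multiplied so that all libraries had the mean total. The log2 values, computed here from the deposited positions, carry a pseudocount of 500 bp for loci and 100 bp for regions. Loci needed a peak in 3 of 6 libraries. limma 3.58.1 (R 4.3.3; trend, 2 group means, 4 residual degrees of freedom) gave p-values, adjusted by Benjamini-Hochberg over all loci or regions, with a threshold of 0.05, and was tested on simulated data first. One value per library was compared by exact permutation, two-sided. The p-values measure the spread between these samples. Peaks called at a threshold turn small differences in signal or depth into presence or absence, so a length of 0 says only that no peak was called.

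The libraries compared, the gene lists and the tests were chosen with earlier results of these data known, and the start windows, the mesothelial list and the X share were added after the data were seen. Loci named in the text were the 15 largest rises and up to 10 largest falls among those that passed without overlap (unnamed gene models left out, and the nearest gene where several share a region), all list members that passed and a set of AT2, AT1 and other genes always given. One locus that this rule names is not reported here. Named regions were the 8 of each one-site kind that ranked highest by −log10 p and the 6 largest width changes each way. Cxcl11, Mx2, Gbp11 and Apol7d matched no locus. Alternatives changed 1 of these choices at a time, or left out 1 library. Start windows and promoter sequences are RefSeq's, chromosome 18 was not used for them, and no sequence of other regions was used here.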

Additional observations from a re-analysis of the deposited data

How the results depend on the processing

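Most locus calls are close to the threshold and rest on peak calls, and the number of reads behind each list is not given. Of 101 higher loci, other pseudocounts, a 2 kb flank and no filter gave 87 to 109. The count was 600 without scaling, 161 when scaled to the median locus, 201 with a 50 kb flank, 58 with a −log10 q of at least 5 (8 shared, of 57 tested), 46 with equal peak numbers in all libraries (35 shared, of 85 tested), 37 with a peak in all 6 libraries and 4 to 86 with 1 library left out. Of 6 lower loci, the count was 10 with a 2 kb flank, 16 with a 50 kb flank, 3 with a peak in all 6 libraries and 0 to 1 with 1 library left out, where 0 calls came with 1110 to 1296 loci lower at an unadjusted p under 0.05. The higher share of all calls was 94.4%, and 83.6% with equal peak numbers. Niche-only regions (2180) numbered 1004 with a −log10 q of at least 5, 953 with equal peak numbers and 2737 to 3437 with 1 library left out. Distal-only regions (120) numbered 188 where peaks had to cover 50% of a region, 625 with equal peak numbers and 233 to 356 with 1 library left out. Regions wider in the niche (27) numbered 100 without scaling, 15 with a −log10 q of at least 5 and 0 to 11 with 1 library left out, and narrower ones (7) 0 to 2. Niche-only starts (142) numbered 71 with a −log10 q of at least 5 and 65 with equal peak numbers, and distal-only starts (9) 36 with equal peak numbers.

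Libraries with the same replicate number were not treated as pairs, since their deviations correlated at 0.076, 0.059 and 0.033, all under 0.1. Each distal library correlated best with its own number, a hint from the data, and whether such libraries share lungs is not in the labels. With the replicate block, 10 loci were higher (9 shared), 8 of the 30 passing loci chosen for naming still passed, 2 lower, the higher share of calls was 83.3%, and 0 regions were wider or narrower, with 1126 wider and 7764 narrower at an unadjusted p under 0.05 in limma.

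These signs turned, the cause not tested. With a −log10 q of at least 5, Cpne4 gave 0.156, Nkx6-1 0.174, Sftpc 0.130, Nkx2-1 0.0133, and the medians were 0.0720 for surfactant, −0.0228 for fibroblast and −0.193 for mesothelial loci. Without scaling, which moves all loci up, Abca3 gave 0.0413, Nkx2-1 0.0900, Ager 0.0648, Krt8 0.0407, and the medians were 0.0612 for surfactant, 0.119 for AT2 factor, 0.143 for AT1 and 0.113 for AP-1 loci. The AT1 median was 0.0179 when scaled to the median locus and ran from −0.0571 to 0.0197 with 1 library left out, and Hopx ran from −0.323 to 0.0019.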

Other observations

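The neighbouring loci Ifi203, Ifi204 and Ifi211 on chromosome 1 were among those that rose. They fell outside the naming rule for loci and were chosen after their values were seen, and no list or tally of their gene family was made. Ifi203 had 0, 0 and 223 bp under peaks in the distal and 1472, 1416 and 1315 bp in the niche libraries (adjusted p = 0.0135), Ifi204 none against 778, 825 and 754 bp, and Ifi211 0, 0 and 223 bp against 1073, 1008 and 899 bp. Loci here share peaks and the genes are close copies, so these are not separate counts. Chosen in the same way, Ddr2, a collagen receptor of mesenchymal cells, had 825, 812 and 810 bp against 2940, 4408 and 4182 bp, Gas1 488, 530 and 441 bp against 1845, 1990 and 1719 bp, and Hoxa2 554, 465 and 462 bp against 1648, 2065 and 1942 bp. Serpina3n, an acute phase protease inhibitor, had none against 1405, 1000 and 729 bp.

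Chromosome X gained less length than the autosomes. It held 2.54%, 2.46% and 2.47% of the covered length in the distal and 2.39%, 2.35% and 2.38% in the niche libraries, and the groups did not overlap (exact permutation test, two-sided, p = 0.1, the smallest possible, and 0.222 adjusted over 20 chromosomes). The groups also did not overlap at 8 of 19 autosomes, with smaller changes. Its covered length was 9.62% higher in the niche, against 13.1% to 17.0% on the autosomes. Niche-only regions made up 1.42% of its regions, against 1.94% to 3.46% on the autosomes. The log2 change of the X share, −0.07, stayed between −0.11 and −0.05 under stronger peaks, equal peak numbers and with each library left out.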
